A study of Mus musculus with 2 samples.

Results

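The 7 genes Plat, Plau, Plaur, Serpine2, Serpini1, Serpinf1 and F3 were taken by symbol from the 19070 genes listed in the deposited gene table, and each was found once in both sections. They hold the enzymes that turn plasminogen into plasmin, the receptor that gathers such an enzyme on the cell surface, serpins of the brain, and the starter of blood clotting. Their transcripts were counted as unique molecular identifiers (UMIs) in squares of 16 µm, called bins here, on mouse brain sections. The mice had undergone controlled cortical impact (CCI), which models focal traumatic injury by driving a piston into the brain through an opening in the skull over the right parietal lobe. The assay was Visium HD for fixed, paraffin-embedded tissue, in which probe pairs are hybridised to the section, and a bin can cover pieces of neighbouring cells of different types. There were 2 groups, 3 days and 28 days after CCI, each with 1 coronal section of a male C57Bl6 mouse. The labels give an age of 3 months for both mice, which by the study's methods is the age at impact. The labels name no other treatment, and both sections carry the injury, so the side opposite the impact was the only control.

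With 1 section per group no difference has a check against the spread between animals, and each difference below has only a 95% interval for counting error. The 3 days section held 121967 bins with 120615873 UMIs (median 836 per bin) and the 28 days section 105589 bins with 82422389 UMIs (median 596). The sides were split at array column 130 and 240, which was the median column of the midline thalamic gene Gbx2 in each section. The array caught 2.08 mm of the injured and 4.62 mm of the opposite side at 3 days, and 3.84 mm and 2.86 mm at 28 days, so the sides do not hold the same anatomy. Levels are given in CPM, a gene's UMIs per 1000000 UMIs of the same area. A zone of tissue on the injured side was outlined with 6 phagocyte genes (Cd68, Lyz2, Ctsz, Lgals3, Cd52 and Laptm5) and compared with its reflection across the border. It covered 8506 bins at 3 days and 13559 bins at 28 days. The reflection matched the zone poorly in anatomy at both times. The 6 striatal markers summed to 696 CPM in the zone and 134 in the reflection at 3 days, and to 324 and 1069 at 28 days, and the 6 choroid plexus markers to 1130 and 4524 at 3 days and 213 and 1592 at 28 days. At 28 days part of the tissue over the lesion was missing, and the injured side still held 619 dentate granule layer bins, 20.4% of them in the zone. The labelled tissue was borne out by its markers, with 4 neuronal genes (Snap25, Syt1, Rbfox3 and Stmn2) summing to 5250 CPM at 3 days and 5543 at 28 days on the uninjured side. The sections share 84781 bin barcodes, which name array positions and not cells.

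Plasminogen circulates in blood as an inactive precursor. Tissue-type plasminogen activator, the product of Plat, and urokinase, the product of Plau, cut it into plasmin, which dissolves fibrin and cleaves matrix proteins, and Plaur encodes the urokinase receptor, anchored to the outer membrane of many leukocytes and migrating cells. Serpine2 (protease nexin-1, made by glia) and Serpini1 (neuroserpin, made by neurons) encode inhibitors of these proteases. Serpinf1 encodes pigment epithelium-derived factor, a serpin that inhibits no protease, and F3 encodes tissue factor, the membrane protein that starts clotting when blood meets brain tissue and that astrocytes carry.

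In mm10, the build the submitters' notes name, all 7 genes lie on different stretches of the genome. Plat spans chromosome 8 from 22757722 to 22782848, Plau chromosome 14 from 20836662 to 20843388, and Plaur chromosome 7 from 24460937 to 24475970. Serpine2 spans chromosome 1 from 79794317 to 79858665 and Serpinf1 chromosome 11 from 75410029 to 75422623. Serpini1 and F3 share chromosome 3, from 75557493 to 75642523 and from 121723537 to 121735052. Promoter sequence from RefSeq (GRCm38.p6) was at hand for 5 of the 7 genes. The letters TGANTCA, the motif of the AP-1 factors, read alike on both strands, stood within 250 bases before the transcript start that the RefSeq table uses for Plaur (1 match, beginning 69 bases before it) and of F3 (2 matches, beginning 146 and 135 bases before it). They did not stand in the same window of Serpine2, Serpini1 or Serpinf1, and 6.75% of the 32851 promoters in the table held them, searched in the same way over 250 bases. That start of Plaur lies inside the gene's span, and so does its whole window. The 3 windows below are those of Plaur and F3, which were higher in the zone and held the motif, and of Serpini1, which was lower in both sections. Serpine2 and Serpinf1, also higher in the zone in both sections, held no match and are not shown. The windows thus do not set motif against direction. Capitals mark the motif, and all 3 run 5′ to 3′ on the plus strand. The windows of F3 and Serpini1 end just before the span of their gene. A match of letters is no evidence of binding.
Plaur, chr7:24462233-24462482: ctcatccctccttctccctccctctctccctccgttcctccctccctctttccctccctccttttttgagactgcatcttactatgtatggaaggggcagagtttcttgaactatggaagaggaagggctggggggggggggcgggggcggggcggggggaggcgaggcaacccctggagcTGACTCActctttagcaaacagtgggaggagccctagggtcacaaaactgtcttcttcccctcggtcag
F3, chr3:121723287-121723536: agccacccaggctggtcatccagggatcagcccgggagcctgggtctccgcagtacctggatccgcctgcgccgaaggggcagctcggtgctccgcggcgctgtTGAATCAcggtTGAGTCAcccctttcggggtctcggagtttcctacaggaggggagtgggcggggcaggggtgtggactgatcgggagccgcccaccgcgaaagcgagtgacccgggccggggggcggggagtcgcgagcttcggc
Serpini1, chr3:75557243-75557492: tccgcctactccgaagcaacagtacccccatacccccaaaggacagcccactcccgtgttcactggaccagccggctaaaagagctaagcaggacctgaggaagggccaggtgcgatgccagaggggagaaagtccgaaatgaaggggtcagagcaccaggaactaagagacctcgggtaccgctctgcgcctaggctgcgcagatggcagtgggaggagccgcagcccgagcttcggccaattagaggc

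Across whole sides, Plau and Plaur were the members that differed most. At 3 days, 3 of the 7 genes were at least 2-fold higher on the injured side (Plau, Plaur and Serpinf1), where 10.5% of the 16164 genes measured were, and 0 of 7 were at least 2-fold lower, where 2.12% were. At 28 days, 2 of 7 were at least 2-fold higher (Plau and Plaur), against 6.43% of 15640 genes, and 0 of 7 were lower, against 0.582%. The median log2 ratio of the 7 genes was 0.59 at 3 days and 0.62 at 28 days, beside 0.14 and 0.04 for all genes measured. In a section, fewer cells of a type and less RNA per cell cannot be told apart. Levels of different genes are not compared, because each gene has its own probes.

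**Figure D1:**
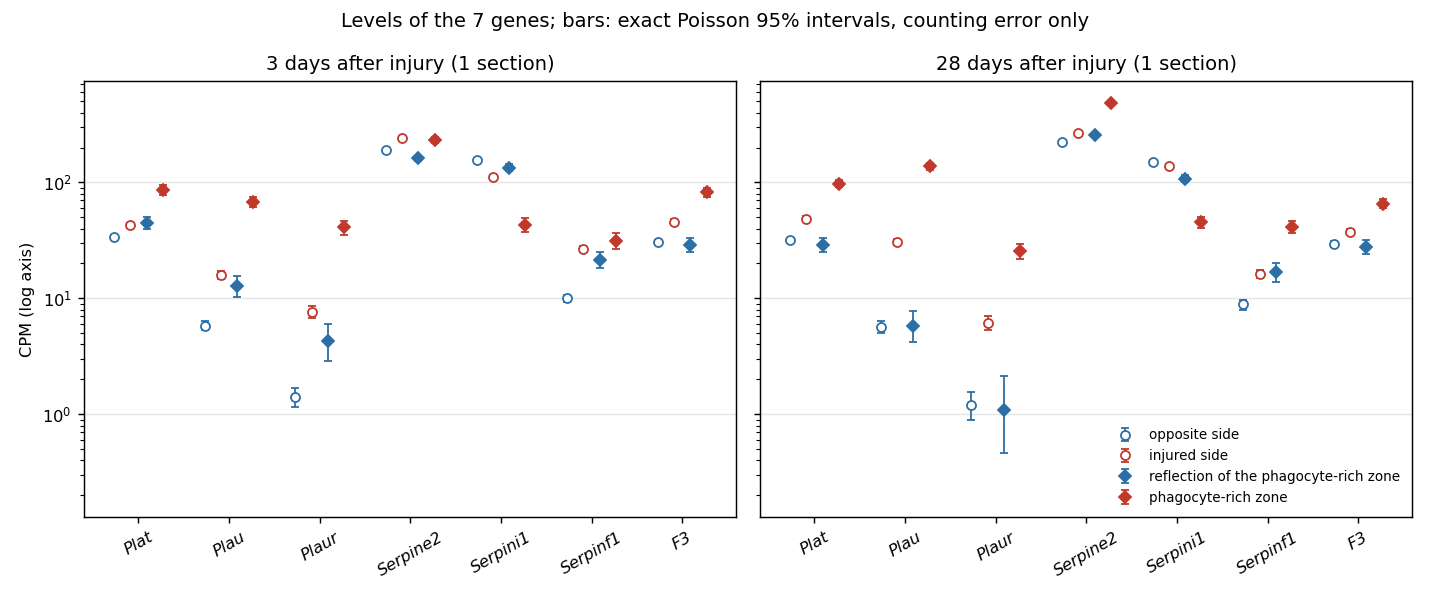
Level of each of the 7 genes in CPM (log axis) on the opposite side, the injured side, the reflection of the phagocyte-rich zone and the zone itself, in the 3 days section (left) and the 28 days section (right), with exact Poisson 95% intervals for counting error. Plau stood at 67.8 in the zone at 3 days and at 137 at 28 days, against 12.8 and 5.83 in the reflection, and Serpini1 is the gene whose zone value lies below the other 3 in both sections.

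In the zone, the members moved further apart. At 3 days 3 of 7 genes were at least 2-fold higher than in the reflection (Plau, Plaur and F3), beside 17.0% of the 13542 genes measured, and 1 (Serpini1) was at least 2-fold lower, beside 8.57%. At 28 days 5 of 7 were at least 2-fold higher (Plat, Plau, Plaur, Serpinf1 and F3), beside 16.4% of 13593 genes, and Serpini1 was again lower, beside 7.82%. The median log2 ratio of the 7 genes was 0.95 at 3 days and 1.29 at 28 days, where all genes had medians of 0.13 and 0.00.

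The zone also differed from its reflection in cell makeup and depth, and their part in these ratios was not tested. All 4 neuronal markers were lower in it, with summed log2 ratios of -1.88 at 3 days and -1.39 at 28 days, and all 5 microglial markers (Tmem119, P2ry12 and Csf1r among them) were higher, by 1.60 and 3.61. The zone was placed by phagocyte genes, so the higher microglial markers are not independent of that choice. Fibroblast markers were higher by 1.26 and 2.39. At 3 days the reflection was itself richer in Gfap and Vim than the whole opposite side, with 1804 CPM against 484. At 28 days it had 283 against 261. The 5 microglial markers summed to 542 CPM in the reflection against 343 over the opposite side at 3 days, and to 325 against 313 at 28 days. The zone ratios at 3 and 28 days thus rest on unlike references. Mean UMIs per bin were 607 in the zone and 927 in the reflection at 3 days, and 528 and 628 at 28 days.

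**Figure D2:**
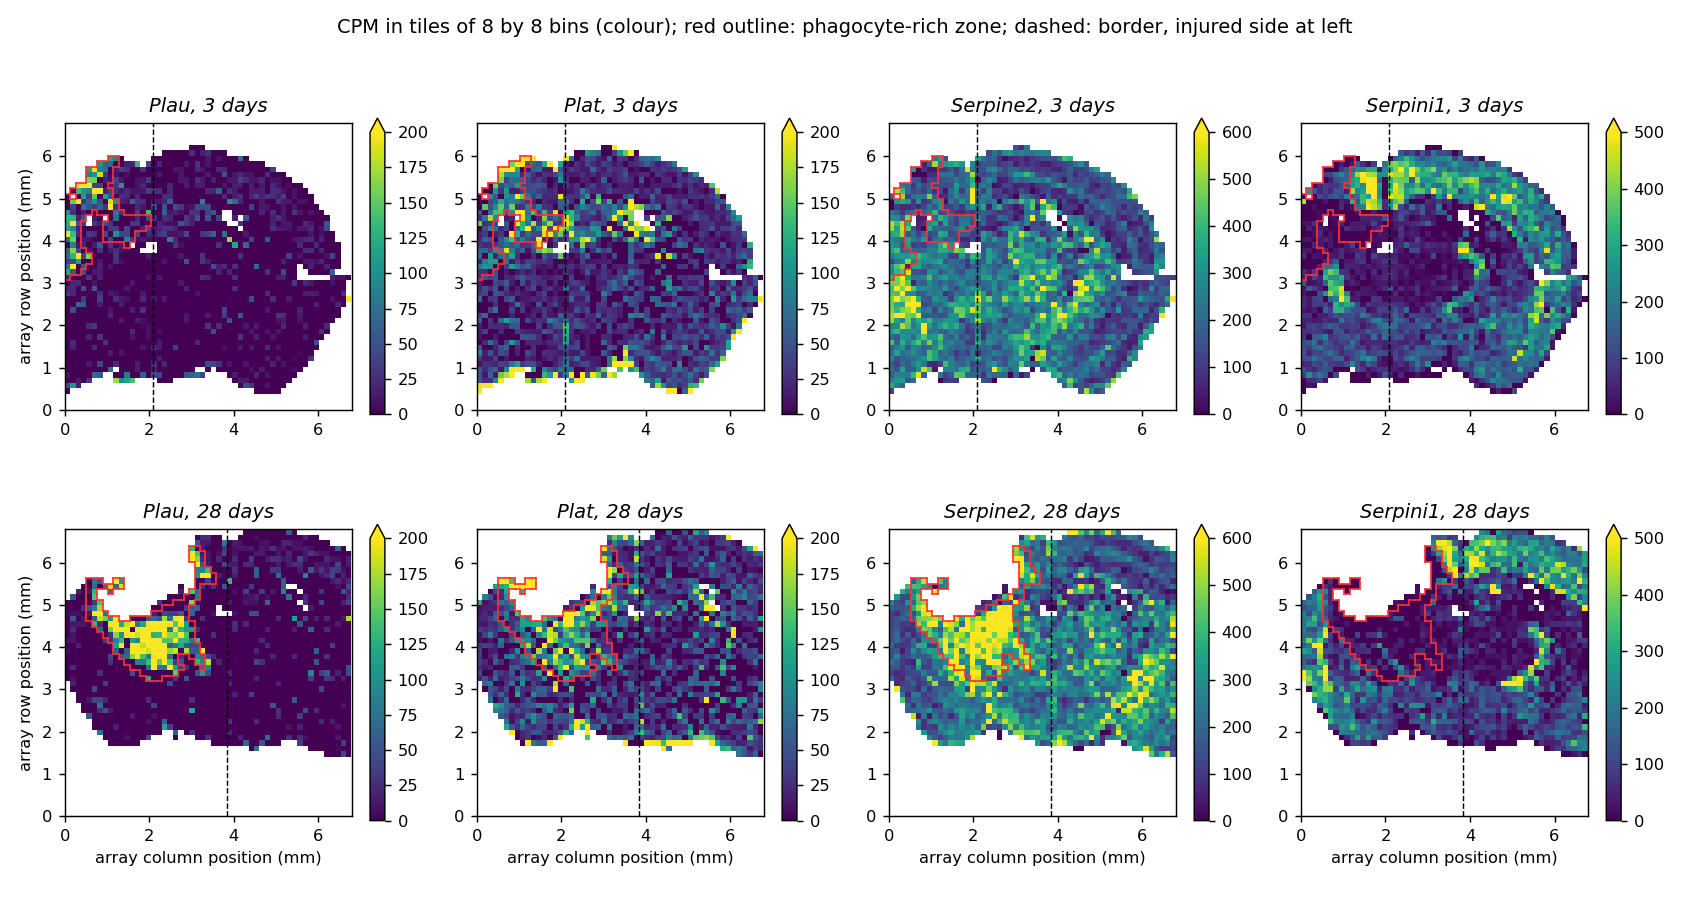
Levels of Plau, Plat, Serpine2 and Serpini1 over the 3 days section (top) and the 28 days section (bottom), in CPM over squares of 8 by 8 bins (colour, clipped at the top of each scale), with array positions in mm on both axes, the dashed line at the border and the injured side at its left. The red outline is the phagocyte-rich zone, which held 32.4% of all Plau UMIs at 3 days and 70.4% at 28 days, and the white area inside the 28 days outline is missing tissue.

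Plau, the urokinase gene, was sparse over the opposite side as a whole and concentrated in the zone. The opposite side had 5.79 CPM of it at 3 days and 5.67 at 28 days. On the injured side it had 15.9 at 3 days (log2 ratio 1.46, 1.29 to 1.64), and 30.7 at 28 days (log2 ratio 2.43, 2.24 to 2.64). The 2 opposite sides thus lay close together while both injured sides lay above them. In the zone Plau reached 67.8 CPM at 3 days (350 UMIs, against 93 in the reflection) and 137 at 28 days (982 against 43). The log2 ratios were 2.40 (2.07 to 2.75) and 4.54 (4.12 to 5.03), the latter 23.3-fold. The zone held 4.29% of all UMIs of the 3 days section and 8.70% of those of the 28 days section, but 32.4% and 70.4% of the Plau UMIs. With the opposite side weighted to the areas found in the zone, a reference chosen after the data were seen, the log2 ratio was 3.22 at 3 days and 4.10 at 28 days. The 3 days value was 3.55 against the whole opposite side and 1.79 when counted per bin.

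Counts of Plau in single bins were low. In the zone 303 bins had at least 1 UMI of it at 3 days and 829 at 28 days, while 89 and 42 bins of the reflection did. At 28 days 28 bins of the zone and 0 bins of the reflection held 3 or more UMIs. The highest bin of either section was in the 3 days zone, with 11 Plau UMIs of 1273, and the bin next to it held 4 of 912.

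Plau declined steeply away from the zone. Within 250 µm of it on the injured side the gene had 14.3 CPM at 3 days and 12.3 at 28 days. From 250 to 500 µm it had 9.93 and 3.82, from 500 to 1000 µm 5.62 and 2.45, and from 1000 to 2000 µm 3.33 and 3.41. From 500 to 2000 µm both sections were thus at or below the level of the opposite side. Farther out, in the 5531 bins over 2000 µm from the 3 days zone, Plau had 8.49 CPM (6.34 to 11.1), above the opposite side, and at 28 days the injured side did not reach that far.

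**Figure D3:**
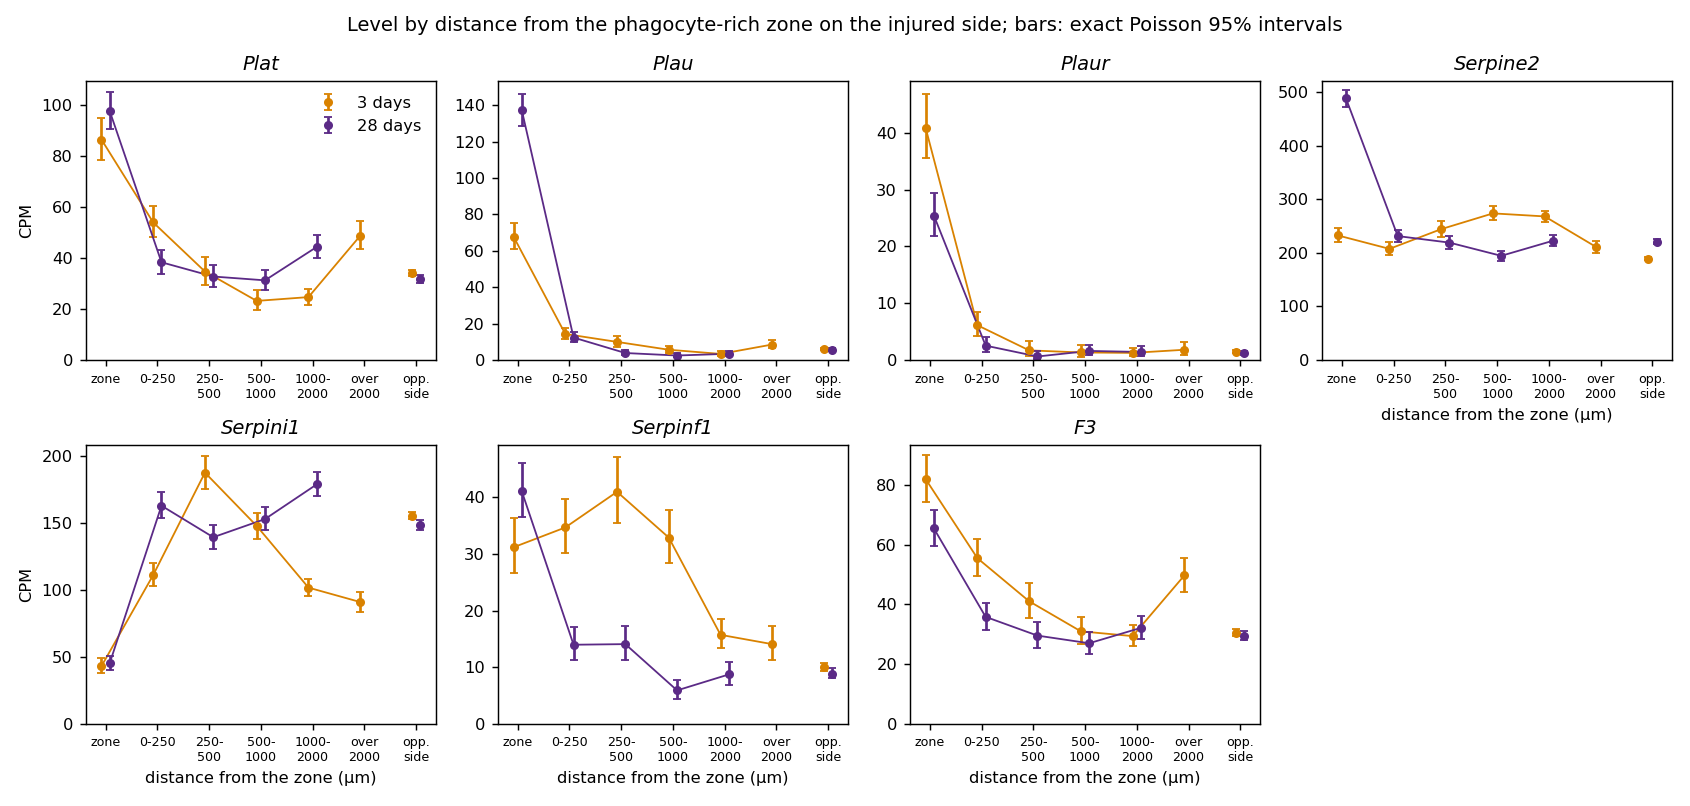
Level of each gene in CPM in the zone, in bands of distance from it on the injured side (in µm, the band over 2000 at 3 days only) and on the whole opposite side, at 3 days (orange) and 28 days (purple), with exact Poisson 95% intervals. Plau and Plaur drop within the first 250 µm, Serpine2 at 28 days goes from 489 in the zone to 231 in the first band, and Serpini1 is lowest in the zone in both sections.

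By anatomy, Plau was higher on the injured side of striatum, white matter and ependyma in both sections. Areas were drawn as bins rich in regional marker genes, and 11 of them had at least 300 bins on each side in both sections. In bins rich in relay thalamus markers (Tcf7l2, Prkcd, Lef1, Rgs16 and Synpo2), Plau had 32.3 CPM on the injured and 2.21 on the opposite side at 28 days (log2 ratio 3.81, 2.83 to 5.08) from 51 and 9 UMIs. At 3 days the same area had 4.29 and 3.12 (log2 ratio 0.52, -1.02 to 1.75), with none of its injured bins inside the zone. Part of the 28 days value came from outside the zone, where the relay thalamus of the injured side still had 25.02 CPM from 30 UMIs. In striatal bins Plau had 30.5 CPM on the injured and 3.73 on the opposite side at 3 days (log2 ratio 2.99, 2.10 to 4.05) and 8.50 and 3.33 at 28 days (log2 ratio 1.34, 0.04 to 2.67). Of the injured striatal bins, 60.2% lay in the zone at 3 days and 19.1% at 28 days.

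Bins rich in white matter or ependymal markers held Plau as well, on the injured side at 28 days only where they lay in the zone. White matter bins of the injured side had 45.1 CPM at 3 days and 90.5 at 28 days, and those of the opposite side 9.97 and 12.0. At 28 days these UMIs were all in the zone, where 61 were counted, and 0 in the 800 white matter bins of the injured side outside it, which allows up to 17.04 CPM by a floor of 3 UMIs and up to 20.95 by the exact Poisson interval. Bins rich in ependymal markers went from 17.5 on the injured side at 3 days to 97.7 at 28 days, against 5.22 and 14.7 on the opposite side. In the dentate granule layer Plau was 9.86 and 13.4 (injured and opposite side) at 3 days and 36.95 and 3.54 at 28 days. Fibroblast-rich meninges of the injured side held Plau outside the zone too. They had 84.8 CPM in the zone and 34.4 (24.7 to 46.7) outside it at 3 days, and 73.3 and 21.1 (12.3 to 33.7) at 28 days.

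**Figure D4:**
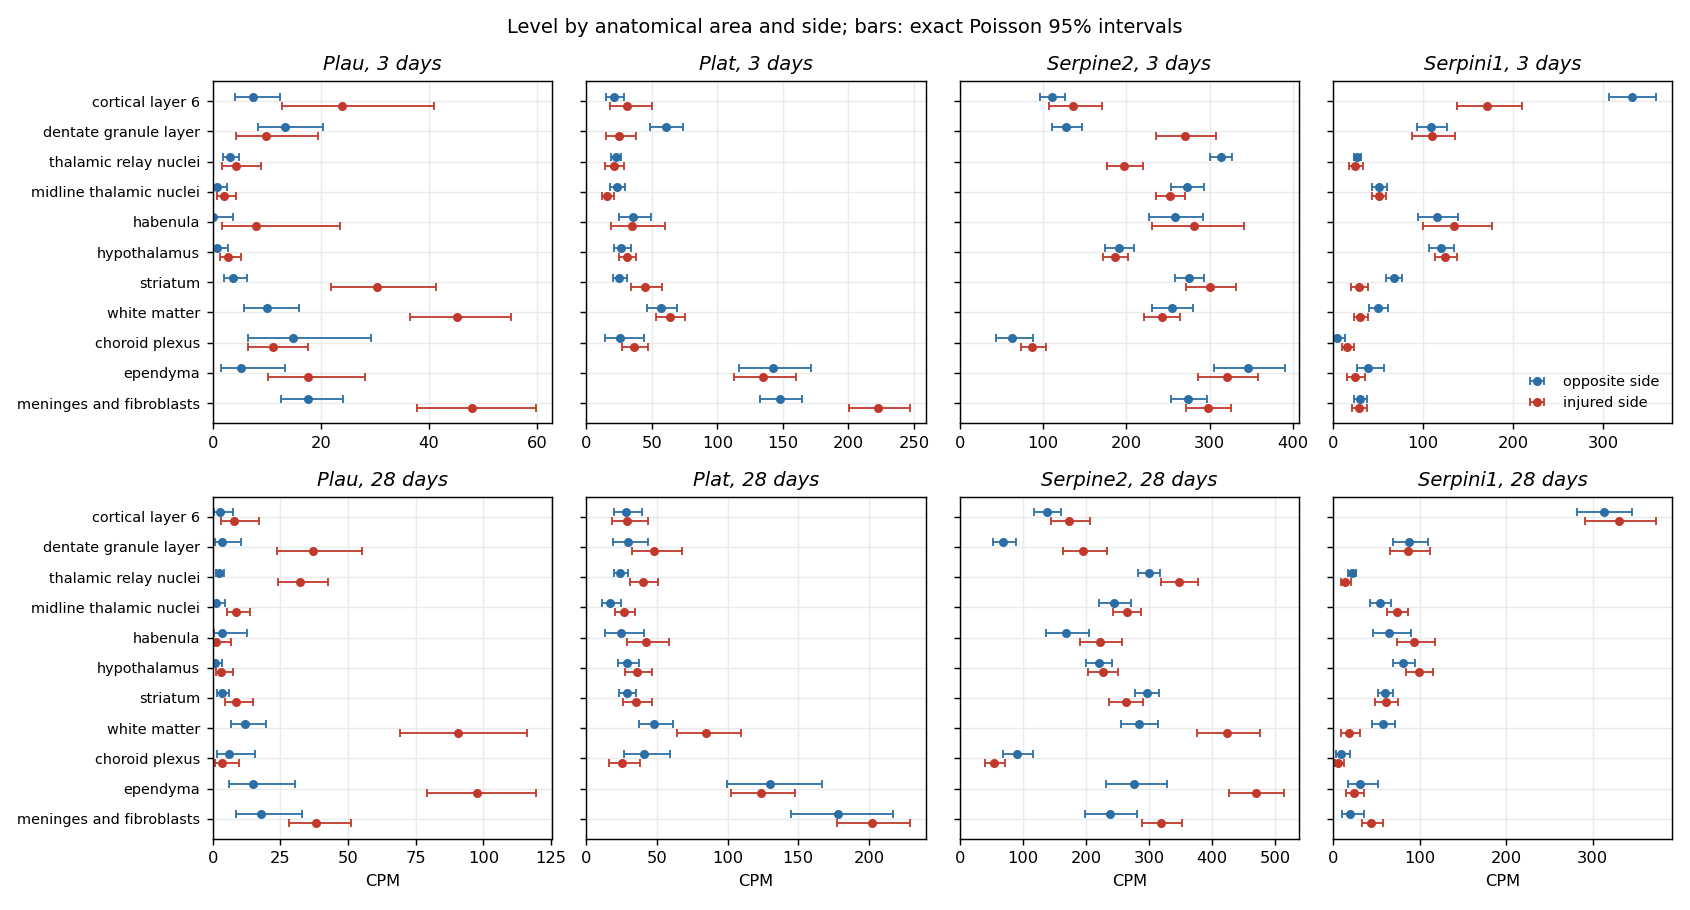
Level of Plau, Plat, Serpine2 and Serpini1 in CPM in 11 areas (rows, drawn by regional marker genes) on the injured (red) and opposite side (blue), at 3 days (top) and 28 days (bottom), with exact Poisson 95% intervals. Plau in relay thalamus stands apart at 28 days (32.3 against 2.21) and not at 3 days, and Serpine2 is higher on the injured side of the dentate granule layer in both sections.

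Within the zone, Plau followed microglial transcripts. In the 5% of zone bins with the largest share of the 5 microglial markers, Plau had 301 CPM at 3 days and 493 at 28 days, while the other zone bins had 58.9 and 124. The log2 ratios were 2.37 (1.92 to 2.77) and 2.00 (1.71 to 2.26). Rich bins were shallower, with a median of 388.5 UMIs against 515 at 3 days and 346.5 against 404 at 28 days. Microglia-rich bins of the opposite side had more Plau too, 21.1 CPM against 5.41 at 3 days and 17.0 against 5.41 at 28 days. Bins rich in the neutrophil genes S100a8, S100a9 and Retnlg had 306 CPM of Plau at 3 days, against 63.8 in the rest of the zone, but 121 against 138 at 28 days. These neutrophil genes summed to 267 UMIs in the zone and 8 in the reflection at 3 days, and to 467 and 5 at 28 days, of which Retnlg gave 2 and 5 in the zone. In neuron-rich zone bins Plau was 39.9 against 69.2 in the others at 3 days (log2 ratio -0.73, -1.87 to 0.10) and 45.03 against 143 at 28 days (log2 ratio -1.64, -2.39 to -1.03).

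Plaur, the urokinase receptor gene, had the fewest UMIs of the 7, with 403 UMIs at 3 days and 282 at 28 days. It had 1.41 CPM on the opposite and 7.61 on the injured side at 3 days (log2 ratio 2.43, 2.12 to 2.75), and 1.20 and 6.14 at 28 days (log2 ratio 2.35, 1.93 to 2.82). The zone alone held 52.4% of its UMIs at 3 days and 64.5% at 28 days. There Plaur had 40.9 CPM at 3 days, against 4.26 in the reflection (log2 ratio 3.24, 2.71 to 3.86), and 25.4 at 28 days, against 1.08 (log2 ratio 4.47, 3.54 to 5.79, from 182 and 8 UMIs). Both the zone and the reflection had a lower level at 28 days. Against the whole opposite side the order of the times turned, with log2 ratios of 4.85 at 3 days and 4.40 at 28 days, and counted per bin the 3 days log2 ratio was 2.63. From 250 to 2000 µm Plaur was between 0.61 and 1.69 CPM in both sections, and over 2000 µm from the 3 days zone it had 1.80 (0.90 to 3.22).

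Plaur was higher in bins rich in several marker lists. In the 3 days zone, Plaur had 137 CPM in fibroblast-rich bins against 34.95 in the others, 137 against 38.6 in bins rich in haemoglobin genes and 153 against 38.99 in neutrophil-rich bins. Plau in the same fibroblast-rich bins had 107 against 65.4, and 146 against 65.99 in those rich in haemoglobin genes. In microglia-rich bins Plaur had 47.6 against 40.6, a log2 ratio of 0.30 with an interval from -0.92 to 1.18. Erythrocyte genes summed to 1175 UMIs in that zone and 42 in the reflection, and to 19 and 14 at 28 days. At 28 days the order was reversed, with Plaur at 77.6 CPM in microglia-rich bins against 23.5 in the others, and 24.3 against 25.5 in fibroblast-rich bins. By area, the meningeal part of the 3 days zone had the most, with 121 CPM from 53 UMIs, while fibroblast-rich meninges of the injured side outside the zone had 9.23.

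Plat, the gene of tissue-type activator, was spread over the whole brain and differed less. Its level on the opposite side was 34.1 CPM at 3 days and 31.6 at 28 days. On the injured side it had 42.6 (log2 ratio 0.32, 0.24 to 0.41), and 48.5 (log2 ratio 0.62, 0.52 to 0.72). In the zone Plat had 86.4 CPM at 3 days against 44.8 in the reflection (log2 ratio 0.95, 0.74 to 1.16) and 97.5 against 28.7 at 28 days (log2 ratio 1.76, 1.54 to 1.99). With the opposite side weighted to the areas of the zone the log2 ratio was 0.72 at 3 days and 1.01 at 28 days, and at 3 days it was 1.34 against the whole opposite side and 0.34 when counted per bin.

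Plat varied with anatomy on both sides. The highest levels were in fibroblast-rich meninges, with 148 CPM on the opposite and 223 on the injured side at 3 days and 178 and 202 at 28 days, and in ependyma, with 142 and 135 at 3 days and 130 and 123 at 28 days. In ependyma the sides did not differ beyond counting error in either section (log2 ratio -0.08 in both, intervals -0.45 to 0.31 and -0.53 to 0.39). Relay thalamus had 22.6 on the opposite and 20.85 on the injured side at 3 days, and 24.03 and 39.9 at 28 days (log2 ratio 0.73, 0.25 to 1.20). In the dentate granule layer Plat was lower on the injured side at 3 days, 24.7 against 60.45 (log2 ratio -1.27, -2.07 to -0.59), and 47.7 against 29.5 at 28 days, where the interval of -0.11 to 1.51 includes 0.

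Plat was higher in fibroblast-rich and not in microglia-rich bins of the zone. In microglia-rich zone bins Plat had 47.6 CPM at 3 days and 58.2 at 28 days, against 87.9 and 98.99 in the others, where the interval of the 3 days log2 ratio (-2.02 to 0.05) includes 0. In fibroblast-rich zone bins it had 281 and 225, against 74.4 and 87.3. Bins rich in ependymal genes held 209 and 160. Away from the lesion, bins of the opposite side rich in Gfap and Vim, which astrocytes and ependyma share, held 148 at 3 days and 105 at 28 days, against 31.6 and 30.25 in the rest.

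Serpine2, the protease nexin-1 gene, was the best counted member, with 24807 UMIs at 3 days and 19975 at 28 days, in 17.7% and 16.5% of bins. It had 242 CPM on the injured and 189 on the opposite side at 3 days (log2 ratio 0.36, 0.32 to 0.39), and 269 and 221 at 28 days (log2 ratio 0.28, 0.24 to 0.32). In the zone it had 233 at 3 days against 161 in the reflection (log2 ratio 0.53, 0.42 to 0.65), and 489 at 28 days against 257 (log2 ratio 0.92, 0.84 to 1.01). The 3 days value depended on the setting: it was 0.06 with the weighted reference and -0.08 when counted per bin. It lay between 0.30 and 0.54 in the other settings. The 28 days value was 1.05 with the weighted reference and 1.14 against the whole opposite side, past 2-fold in both. It was 0.67 when counted per bin and 0.77 with a wider zone drawn at the 95th percentile. At 28 days the level went from 489 in the zone to 231 within 250 µm, close to the 221 of the opposite side, whereas at 3 days the bands around the zone had between 208 and 274.

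By area, Serpine2 differed between the sides in the dentate granule layer and relay thalamus in both sections. In the dentate granule layer it had 270 CPM on the injured and 128 on the opposite side at 3 days (log2 ratio 1.08, 0.80 to 1.36), with none of those injured bins in the zone, and 195.5 and 68.5 at 28 days (log2 ratio 1.51, 1.05 to 1.99). Outside the zone the 28 days dentate value was 162. In relay thalamus Serpine2 was lower on the injured side at 3 days, 197.5 against 313 (log2 ratio -0.66, -0.84 to -0.50), and higher at 28 days, 348 against 300 (log2 ratio 0.22, 0.07 to 0.36). The injured relay thalamus held 1253 bins at 3 days, against 7174 on the opposite side, and 2714 against 5668 at 28 days. The reason for these unequal sizes was not tested. In ependyma it had 321 and 346 at 3 days (log2 ratio -0.11, -0.35 to 0.13) and 469 and 277 at 28 days (log2 ratio 0.76, 0.48 to 1.05), on the injured and opposite side. At 28 days the injured ependyma had 535 in the zone and 292 outside it.

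Serpine2 was higher in astrocyte-rich and in microglia-rich bins of the opposite side and in microglia-rich bins of the zone. Opposite-side bins rich in Aqp4, Gja1, Aldh1l1, Agt and Slc1a3 had 372 CPM at 3 days and 428 at 28 days, against 185 and 217 in the rest, and microglia-rich bins there had 323 and 360 against 186 and 218. In the zone these astrocyte-rich bins had 248 against 232 at 3 days and 599 against 485 at 28 days (log2 ratio 0.31, 0.06 to 0.54). Microglia-rich zone bins had 370 against 228 at 3 days and 745 against 479 at 28 days. In the 3 days zone the astrocyte-rich bins did not differ from the others beyond counting error.

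Serpini1, the neuroserpin gene, was the member that was lower on the injured side. It had 112 CPM on the injured and 156 on the opposite side at 3 days (log2 ratio -0.48, -0.53 to -0.43), and 138 and 149 at 28 days (log2 ratio -0.11, -0.16 to -0.06). In the zone it had 43.0 at 3 days against 134 in the reflection (log2 ratio -1.64, -1.86 to -1.43) and 45.3 at 28 days against 108 (log2 ratio -1.25, -1.44 to -1.06). With the wider zone of the 95th percentile the 28 days log2 ratio was -0.95, short of 2-fold. The summed neuronal markers had log2 ratios of -1.88 and -1.39 in the same comparison, somewhat further from 0 than those of Serpini1.

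Serpini1 traced the cortical layers and left the relay thalamus nearly blank on both sides. On the opposite side, cortical layer 5 bins had 334 CPM at 3 days and 318 at 28 days, layer 6 had 332 and 313, and relay thalamus 26.6 and 21.3. In layer 6 the injured side had 171 at 3 days (log2 ratio -0.95, -1.29 to -0.64) and 330 at 28 days (log2 ratio 0.08, -0.16 to 0.31). The 3 days value came from 518 injured bins, of which 0 were left with a stricter marker threshold (6 in place of 4), against 1558 on the opposite side. In striatum the injured side had 28.2 at 3 days, where the opposite side had 67.4, and the values at 28 days were 60.9 and 59.7. White matter was lower on the injured side in both sections, 29.8 against 49.3 at 3 days and 17.8 against 57.1 at 28 days. Bins rich in GABAergic genes (Gad1, Gad2, Pvalb, Sst and Vip) on the opposite side held 301 at 3 days and 338 at 28 days, against 149 and 140 in the rest.

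Serpinf1, the gene of pigment epithelium-derived factor, had 26.5 CPM on the injured and 10.0 on the opposite side at 3 days (log2 ratio 1.40, 1.27 to 1.54), and 16.2 and 8.85 at 28 days (log2 ratio 0.87, 0.69 to 1.06). Over an equal width of both sides, an alternative chosen after the data were seen, the 3 days ratio was 0.92 and no longer 2-fold. In the zone it had 31.2 against 21.4 in the reflection at 3 days (log2 ratio 0.54, 0.22 to 0.87), a log2 ratio that was -0.07 when counted per bin and 1.64 against the whole opposite side. At 28 days it had 41.1 against 16.8 (log2 ratio 1.29, 0.98 to 1.60), and the log2 ratio was 2.21 against the whole opposite side. Unlike Plau and Plaur, Serpinf1 was no lower within 1000 µm of the 3 days zone than in it, with 34.7 CPM within 250 µm, 41.0 from 250 to 500 µm and 32.9 from 500 to 1000 µm, and fell to 15.7 from 1000 to 2000 µm. At 28 days it did drop at once, from 41.1 in the zone to 13.9 within 250 µm. Farther out it had 14.1 from 250 to 500 µm and 5.87 from 500 to 1000 µm.

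By area, Serpinf1 was higher on the injured side of the meninges and of the dentate granule layer in both sections. Fibroblast-rich meninges had 185 on the injured and 129 on the opposite side at 3 days (log2 ratio 0.52, 0.28 to 0.76) and 117 and 79.1 at 28 days (log2 ratio 0.56, 0.07 to 1.09). The dentate granule layer had 105 and 44.5 at 3 days (log2 ratio 1.23, 0.76 to 1.71) and 24.6 and 2.36 at 28 days (log2 ratio 3.11, 1.29 to 6.55, from 16 and 2 UMIs). Layer 6 had 31.2 and 6.31 at 3 days (17 and 12 UMIs) and 3.92 and 14.97 at 28 days (3 and 18 UMIs). Its injured bins at 3 days were all lost under the stricter marker threshold. On the opposite side Serpinf1 stood out in fibroblast-rich bins, 94.3 against 6.83 in the rest at 3 days and 42.6 against 7.37 at 28 days, and in GABA-rich bins, 40.4 against 8.66 and 49.9 against 7.05.

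F3, the tissue factor gene, had 45.7 CPM on the injured and 30.4 on the opposite side at 3 days (log2 ratio 0.59, 0.50 to 0.68), and 37.6 and 29.4 at 28 days (log2 ratio 0.35, 0.24 to 0.46). In the zone it had 81.9 against 29.1 at 3 days (log2 ratio 1.49, 1.25 to 1.74) and 65.4 against 27.9 at 28 days (log2 ratio 1.23, 0.99 to 1.47). Both fell short of 2-fold with the weighted reference, at 0.85 and 0.83, and when counted per bin, at 0.88 and 0.97. F3 declined outward from 55.4 within 250 µm to 41.0, 30.9 and 29.3 at 3 days, but had 49.7 (44.2 to 55.6) over 2000 µm from the zone. The 28 days section had 35.8 in the first band and between 26.9 and 32.1 beyond.

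F3 lay in bins rich in astrocyte and fibroblast genes. On the opposite side, astrocyte-rich bins had 127 CPM at 3 days and 102 at 28 days, against 27.97 and 27.8 in the rest, and fibroblast-rich bins had 130 and 61.01, against 26.6 and 28.03. In the zone the astrocyte-rich bins had 133 and 173, against 79.6 and 61.4. In fibroblast-rich meninges the injured side was not higher, with 150.5 against 178 at 3 days (log2 ratio -0.24, -0.47 to -0.01) and 119 against 124 at 28 days (log2 ratio -0.07, -0.49 to 0.37). In striatum F3 had 61.7 against 27.55 at 3 days and 28.3 against 23.95 at 28 days.

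**Figure D5:**
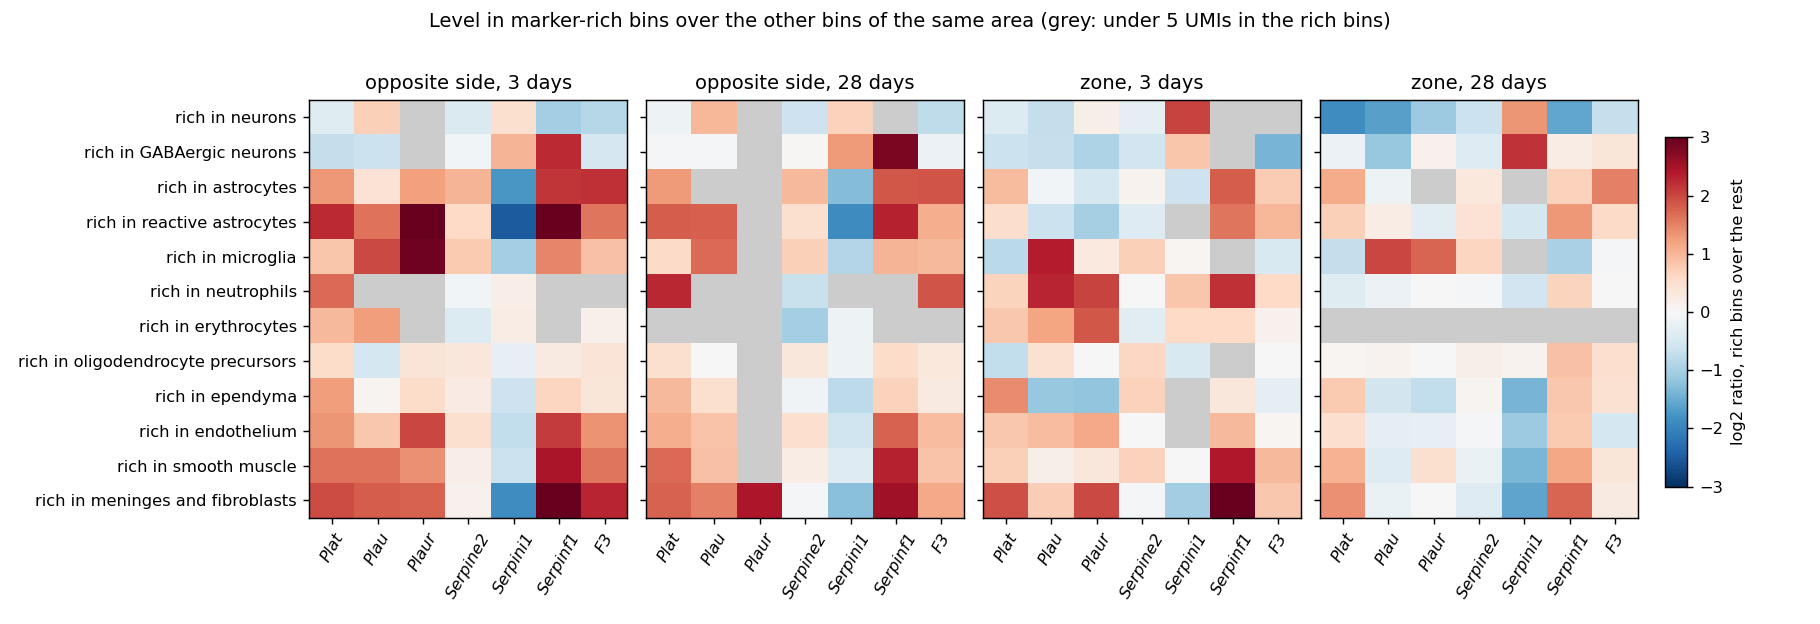
Log2 ratio of each gene's level in the 5% of bins richest in a list of marker genes over all other bins of the same area, on the opposite side and in the zone of both sections (red higher, blue lower, grey where under 5 UMIs were counted in the rich bins or the list had no such bins). In the zone, microglia-rich bins are red for Plau in both sections (2.37 and 2.00), fibroblast-rich bins are red for Plat and Serpinf1, and neuron-rich bins are red for Serpini1.

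The genes whose levels were most like those of a member over squares of 8 by 8 bins differed by member, as a description with no test. Over 1874 squares at 3 days and 1616 at 28 days, and among 8120 genes with at least 2000 UMIs in each section, those most like Plau were Lgals3, Ctsb, Lyz2, Spp1 and Tmsb4x (r of 0.33 to 0.36 at 3 days and 0.45 to 0.55 at 28 days). Plaur was most like Lgals3, Lyz2, Gpnmb, Tmsb4x and Ctsb (r of 0.36 to 0.43 at 3 days and 0.36 to 0.46 at 28 days). Lgals3 and Lyz2 are among the 6 genes that placed the zone. Serpine2 was most like Ptprz1, Ndrg2, Sparc, Atp1b2 and Gpr37l1 (r of 0.38 to 0.46 and 0.43 to 0.49). Serpini1 was most like Unc5a, Rtn1, Cabp1 and Ryr2 (r of 0.54 to 0.56 and 0.55 to 0.58). For Plat (Vim, Lyz2, H2-Aa, Ifitm2 and S100a6), Serpinf1 (Apoe, Itm2b, Apod and Dcn among others) and F3 (Cst3, Atp1b2, Plpp3 and Lrp1 among others) no r passed 0.39. All these correlations are weak to moderate in sparse counts, and nothing is read from them. Among the members themselves, the highest r was that of Plau and Plaur, 0.25 at 3 days and 0.41 at 28 days.

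Transcripts of the substrate were scarce, while the protein was not measured. Plg, the plasminogen gene, had 2 UMIs in the zone and 2 in the reflection at 3 days, and 3 and 1 at 28 days. Its receptors and inhibitors were counted. Of 13 genes listed for plasminogen, its receptors, inhibitors and clearance, 9 were measured in the zone at 3 days (at least 20 UMIs over both areas), with 3 at least 2-fold higher and 1 lower, beside 17.0% and 8.57% of all genes measured. At 28 days 8 were measured, with 6 higher and 0 lower, beside 16.4% and 7.82%, and the list's median log2 ratio was 0.50 at 3 days and 1.86 at 28 days. Anxa2 and S100a10, whose products form a surface complex that binds plasminogen, had log2 ratios of 2.64 and 1.27 at 3 days and 2.99 and 2.28 at 28 days. Their zone levels were lower at 28 days, 81.3 CPM against 224 at 3 days for Anxa2 and 218 against 495 for S100a10. The reflection was lower too, 10.2 against 36.0 and 44.8 against 206. The whole opposite side had 18.0 CPM of Anxa2 at 3 days and 9.96 at 28 days, and 104 and 78.6 of S100a10. Plgrkt, a plasminogen receptor gene, had log2 ratios of 0.90 and 1.44, and Lrp1, which encodes an endocytic receptor that clears protease-inhibitor complexes, had 0.46 and 1.15.

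Of the inhibitors of plasmin itself, Serpinf2 was lower in the zone than in its reflection at 3 days and higher at 28 days. A2m was higher at both times. Serpinf2, the gene of alpha-2-antiplasmin, had 17 UMIs in the zone and 70 in the reflection at 3 days (3.29 and 9.61 CPM, log2 ratio -1.51, -2.40 to -0.77) and 316 and 5 at 28 days (44.15 and 0.68 CPM, log2 ratio 5.89, 4.79 to 7.66). A2m, the gene of the broad inhibitor alpha-2-macroglobulin, had 75.7 and 26.9 CPM at 3 days (log2 ratio 1.49, 1.24 to 1.75) and 311 and 5.01 at 28 days (log2 ratio 5.94, 5.49 to 6.47). Over the whole opposite side Serpinf2 had 1.52 CPM at 3 days, below the 3.29 of the zone. Its 3 days direction thus depended on the reference, and its log2 ratio of injured over opposite side was 0.45 (0.02 to 0.87).

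Of 22 genes of the tissue factor cascade, 13 were measured in the zone at 3 days, with 10 at least 2-fold higher and 0 lower (median log2 ratio 2.18), and 10 at 28 days, with 4 higher and 1 lower (median 0.34). Over all genes 17.0% were higher and 8.57% lower at 3 days, and 16.4% and 7.82% at 28 days. With a minimum of 200 UMIs 2 genes of the list were left at each time, both at least 2-fold higher. F10, the gene of the factor that tissue factor activates together with factor VII, had 56 UMIs in the 3 days zone and 0 in the reflection, at least 26.3-fold higher against a floor of 3 UMIs over the reflection, and 17 and 1 at 28 days. Tfpi2, the gene of a protease inhibitor of the Kunitz type, had 85 and 2 UMIs at 3 days and 4 and 3 at 28 days. Vwf, the gene of von Willebrand factor, had log2 ratios of 2.45 and 0.04, Serpind1, the gene of heparin cofactor II, 2.24 and 0.16, and F13a1, a fibrin cross-linker gene, 1.51 and 0.53. Other genes of the list were higher in both sections, Thbd (thrombomodulin) by 2.18 and 1.81, Procr (the protein C receptor) by 3.03 and 2.98, Pros1 (protein S) by 1.66 and 2.57, and Tfpi, whose product blocks tissue factor, by 1.05 and 2.67. F7 had 27 and 3 UMIs at 3 days and F5 14 and 33 at 28 days. Both fall outside the rule for named genes and are named to complete the counts.

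Of 6 genes for partners of the urokinase receptor, 6 were at least 2-fold higher in the zone at 3 days and 3 at 28 days, beside 17.0% and 16.4% of all genes, with median log2 ratios of 1.55 and 0.95. Itgam and Itgb2, the subunits of the leukocyte integrin Mac-1, had log2 ratios of 1.64 and 2.22 at 3 days and 3.49 and 4.26 at 28 days, and Itgb1 had 1.83 and 1.08. The ratios of Itgam and Itgb2 are not independent of placing the zone by phagocyte genes. Itgav (1.45 and 0.71), Itgb3 (1.46 and 0.52) and Vtn (1.07 and 0.81), the gene of vitronectin, which binds the receptor, passed 2-fold at 3 days alone. Counting per bin shifts every zone ratio by -0.61 at 3 days, which takes Itgav, Itgb3 and Vtn below 2-fold. At 28 days the shift is -0.25, which takes Itgb1 below it. Of 7 other serpins, 4 were at least 2-fold higher at each time and 0 lower, beside 17.0% and 16.4% of all genes higher and 8.57% and 7.82% lower, with median log2 ratios of 1.16 and 1.49. Serpina3n, a serpin gene of reactive astrocytes, had 1.45 and 5.94, and Serpinh1, a collagen chaperone gene, had 2.28 and 1.81. Serping1, the gene of the complement C1 inhibitor, had 0.40 and 4.03, Serpinb9 0.46 and 1.49, Serpinb1a 1.16 and 0.03, and Serpinb6a 1.39 and 0.94. The reflection held 455 CPM of Serpina3n at 3 days, where the whole opposite side held 78.3, and the values at 28 days were 27.8 and 24.8. Serpinb8, named after its values were seen, lay below 0 at both times, with -0.92 (-1.44 to -0.44) and -0.34 (-1.06 to 0.35) in the zone, and was at least 2-fold lower on the injured side, with log2 ratios of -1.26 and -1.57.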

How the data were processed

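The deposited values are raw UMI counts for each gene in each 16 µm bin, not normalized. Space Ranger (version 4.0.1 in the headers) produced them, with mm10 named in the submitters' processing notes and the standard mouse probe set in the study's methods. The members and all gene lists were chosen with earlier results of these data known.

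Bins under 100 UMIs were left out (1.93% at 3 days, 2.15% at 28 days). UMIs were summed over areas, scaled to CPM (UMIs per 1000000 UMIs of that area), and an area was set against another by the log2 ratio after adding 0.5 UMI to each. Ratios have exact conditional binomial intervals and levels exact Poisson intervals (95%). These leave out the spread between animals, so no p-value was computed. A gene was measured with at least 20 UMIs over both areas, and a call is a 2-fold ratio. Neighbouring bins are not independent.

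The zone is made of tiles of 4 by 4 bins in which the share of the 6 phagocyte genes, averaged over 5 by 5 tiles, passed the 99th percentile of the opposite side, in patches of at least 25 tiles. A bin belonged to an area if the mean, over the area's markers, of the local share (5 by 5 bins) relative to the section was the highest of all areas and at least 4, in patches of at least 50 bins. The weighted reference averages the opposite side's level of each area by the UMIs that area has in the zone.

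Named genes are the members, the 5 genes most like each by the lower r of both sections, and list genes with at least 50 UMIs over both areas and a 2-fold ratio in the zone at either time. Some genes that this rule names are not reported here. Likeness is Pearson's r of log2(CPM + 1) over 8 by 8 bins. Alternatives were UMIs per bin, TMM scaling (edgeR 4.0.16), no minimum per bin, a border strip of 15 columns left out, a 95th percentile zone, the whole opposite side as reference, stricter areas (6 in place of 4), tiles of 4 by 4 bins for likeness and 200 UMIs per list gene. The alternatives of equal width and of the weighted reference were added after the data were seen. The ratio and its interval were tested on simulated data drawn as independent Poisson counts, which is what the intervals assume. Such data cannot show how the intervals fare where neighbouring bins are not independent. A bin's diffusion of transcripts to its neighbours was not measured. Software was R 4.3.3, matplotlib 3.10.9 and Python 3.11.15 with scipy 1.17.1, pandas 2.3.3 and numpy 2.4.6.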

Additional observations from a re-analysis of the deposited data

Results flagged for a closer look

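Among the members' side and zone ratios, their ratios in the 11 areas with at least 300 bins per side, and the zone ratios of the listed genes, in 4 cases the 2 sections differed in direction, each with a counting interval that left out 0, and the difference between the sections was not tested because each time has 1 section. Serpine2 in relay thalamus had a log2 ratio of injured over opposite side of -0.66 at 3 days and 0.22 at 28 days. Serpinf1 in cortical layer 6 had 2.29 at 3 days (17 and 12 UMIs) and -1.75 at 28 days (3 and 18 UMIs). Of the lists, Serpinf2 had a log2 ratio of zone over reflection of -1.51 at 3 days and 5.89 at 28 days, and Vldlr, the gene of a lipoprotein receptor that takes up protease-inhibitor complexes, had 0.45 and -0.34. At 3 days Serpinf2 had 3.29 CPM in the zone, 9.61 in the reflection and 1.52 over the whole opposite side. Its difference in direction thus rests on the reflection as reference. The captured part of relay thalamus and of layer 6 differed between the sections, and its part in these values was not tested. Under the stricter area threshold the injured side kept 121 relay thalamus bins and 0 layer 6 bins at 3 days, so neither area difference could be checked there.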

How the results depend on the processing

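Of 70 side ratios under other settings, 46 stayed within the counting interval of the reported value, and of 84 zone ratios 50 did; the cause of the other values was not tested except where the setting itself sets it. Log2 ratios in brackets run in the order given. Without a minimum per bin all 28 were within it. Counted per bin, which shifts the median of all genes by -0.10 (3 days) and -0.16 (28 days) for sides and by -0.61 and -0.25 for the zone, the side ratios of Plat, Serpine2, Serpini1 and F3 at 3 days were 0.22, 0.26, -0.58 and 0.49, and at 28 days 0.46, 0.12, -0.27 and 0.19. The zone ratios of Plat, Plau, Plaur, Serpine2, Serpini1, Serpinf1 and F3 were 0.34, 1.79, 2.63, -0.078, -2.25, -0.069 and 0.88 at 3 days, so that Serpine2 and Serpinf1 changed sign, and those of Plat, Serpine2, Serpini1 and F3 were 1.51, 0.67, -1.501 and 0.97 at 28 days. The share of higher calls in the zone over all genes went from 66.5% to 28.3% (3 days) and from 67.8% to 49.9% (28 days). TMM scaling, which shifts the median by -0.14 (sides) and -0.12 (zone) at 3 days, gave side ratios at 3 days of 0.19 for Plat, 0.22 for Serpine2, -0.62 for Serpini1, 1.27 for Serpinf1 and 0.45 for F3, and 0.41 for Serpine2 in the zone. Without the border strip Serpini1 had -0.42 at 3 days. Over equal widths the side ratios of Plau, Plaur, Serpine2, Serpini1, Serpinf1 and F3 were 1.27, 1.98, 0.14, -0.18, 0.92 and 0.47 at 3 days, and those of Plat, Plau, Serpine2 and Serpini1 0.73, 2.66, 0.44 and -0.47 at 28 days. With the zone of the 95th percentile Plau had 2.01 and Serpini1 -1.22 at 3 days, and Serpine2 0.77 and Serpini1 -0.95 at 28 days. Against the whole opposite side Plat, Plau, Plaur, Serpine2 and Serpinf1 had 1.34, 3.55, 4.85, 0.30 and 1.64 at 3 days, and Serpine2, Serpini1 and Serpinf1 1.14, -1.71 and 2.21 at 28 days. With the weighted reference Plat, Plau, Serpine2, Serpini1 and F3 had 0.72, 3.22, 0.065, -1.43 and 0.85 at 3 days and 1.01, 4.10, 1.05, -1.66 and 0.83 at 28 days. The number of areas with a higher injured side stayed within 1.5 times for all 7 genes under stricter areas. Serpine2 at 28 days was at that limit, going from 9 of 11 areas to 6 of 11. At 3 days only 10 areas could be compared under the stricter rule, because cortical layer 6 had 0 bins left on the injured side. With 200 UMIs per gene the tissue factor cascade kept 2 measured genes at each time, both at least 2-fold higher. With smaller tiles, 3 of the 5 most alike genes were shared for Plat, Plau, Plaur, Serpini1 and F3, 2 for Serpine2 and 1 for Serpinf1.

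Depth limits Plaur and the smaller areas most, and the spread between animals is unknown. No paired analysis was possible because each group has 1 section, and with 1 section no replicate can be left out.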
